A study of Mus musculus with 3 samples.

Results

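The proteasome is the protease that degrades ubiquitin-tagged proteins. Here its genes were followed by H3K36me3, a histone mark laid down over transcribed gene bodies, in fully-grown mouse germinal vesicle (GV) oocytes. Members were the autosomal protein-coding genes of GENCODE M21 on GRCm38 whose symbol begins with Psma, Psmb, Psmc, Psmd, Psme, Psmf or Psmg. This gave 49 genes of the 20242 autosomal protein-coding genes with at least 1 valid window. The only other protein-coding gene with such a symbol, Psmd10, lies on X and was left out. The members took up 572 of the 1186323 valid windows of 2 kb. A gene covered between 1 and 56 windows, with a median of 7.

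The oocytes came from wildtype C57BL6/Babr mice at 25 days of age, and the mark was measured by native ChIP-seq adapted to ultra-low input, with 3 replicates that each pooled about 280 oocytes. All 3 pools belong to a single group, without an untreated or treated counterpart, so the comparisons are between genes within the same libraries. Replicate 1 was the deepest with 7888140 reads in windows, while replicate 2 had 2692510 and replicate 3 had 3166564. Less antibody went into replicate 2. Nothing in the labels says which animals a pool came from, so the spread between pools may be technical. A pool in which fewer oocytes carry the mark at a gene cannot be told apart from one in which each oocyte carries less of it. Of the 10 oocyte marker genes, 9 had a level above 1, and the exception was Sohlh1 with 0.33. Above 1 were also 3 of 8 markers of other ovarian cells (Star, Amh and Cyp11a1), 1 of 5 immune cell markers (Cd74) and 0 of 4 testis markers. Among all autosomal protein-coding genes, 52.9% were above 1.

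In the proteasome, the core particle is a stack of alpha and beta rings, and the beta ring carries the catalytic sites. A regulatory particle of ATPases and non-ATPase subunits binds ubiquitinated proteins, unfolds them and feeds them into the core. In immune cells and under interferon, the catalytic subunits Psmb5, Psmb6 and Psmb7 are replaced by Psmb8, Psmb9 and Psmb10. Psmb11 takes the place of Psmb5 in cortical thymic epithelium, and Psma8 that of Psma7 in male germ cells. The oocyte has to carry its protein degradation machinery into a period without transcription.

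The level of a gene was the mean RPKM of its windows in a replicate, where RPKM is the deposited read value of a 2 kb window scaled to library depth. A level of 1 is the value above which the study called a window enriched. The mean over replicates was above 1 for 42 of the 49 members (85.7%), against 52.9% of all autosomal protein-coding genes. In each of the 3 replicates, 41 members (83.7%) were above 1, against 46.9% of all genes. The members averaged 1.86 ± 0.09 RPKM (SD, n = 3 replicates), from 1.79 (replicate 1) over 1.83 (replicate 2) to 1.95 (replicate 3). All other autosomal protein-coding genes averaged 1.21 ± 0.02. The log2 ratio of members to the other genes was 0.62 ± 0.04 (SD, n = 3) and positive in 3 of 3 replicates (two-sided exact sign-flip permutation test, p = 0.25). This is the smallest p that 3 replicates allow, so no ratio tested in this way could reach 0.05. Of the 572 member windows, 455 (79.5%) were enriched, against 51.6% of the windows over all autosomal protein-coding genes.

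**Figure D1:**
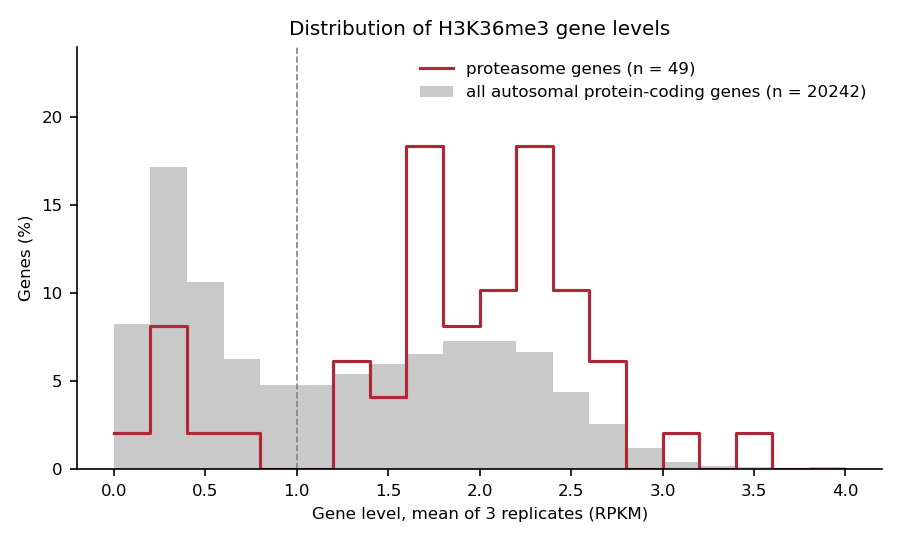
Share of genes (percent, y axis) in each class of gene level (mean RPKM of 3 replicates, x axis, classes of 0.2 RPKM) for all 20242 autosomal protein-coding genes (grey bars) and the 49 proteasome genes (red line). The last class, from 3.8, also holds all genes above 4. The dashed line marks a level of 1. 7 proteasome genes lie to its left, and none lies between 0.8 and 1.2.

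The share above 1 grew with the size of the gene among all genes, and the members were above it in each size class. Of the 19 members with 1 to 5 windows, 13 were above 1, against 34.6% of all genes of that size. All 22 members with 6 to 20 windows were above 1, against 59.3% of all genes. Of the 8 members with 21 windows or more, 7 were above 1, against 64.5% of all genes, and the exception was Psma8.

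The 31 subunits of the constitutive core and regulatory particles were all above 1. They averaged 2.11 ± 0.09 RPKM (SD, n = 3), and 327 of their 371 windows (88.1%) were enriched. The 7 alpha subunits Psma1 to Psma7, which form the outer rings and the gate, averaged 1.85 ± 0.05 and ranged from 1.25 (Psma6) to 2.67 (Psma1). The 7 beta subunits Psmb1 to Psmb7 averaged 2.13 ± 0.28 and ranged from 1.39 (Psmb3) to 3.15 (Psmb5). The 6 ATPases Psmc1 to Psmc6, the unfolding motor, averaged 2.31 ± 0.16, from 1.79 (Psmc2) to 2.64 (Psmc5). The 11 non-ATPase subunits averaged 2.14 ± 0.15, from 1.70 (Psmd7) to 2.78 (Psmd1). In the core particle the level was 0.15 ± 0.18 lower on the log2 scale than in the regulatory particle, a log2 ratio of -0.15 that was negative in 3 of 3 replicates (exact sign-flip permutation test, p = 0.25). That difference is smaller than its own SD.

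**Figure D2:**
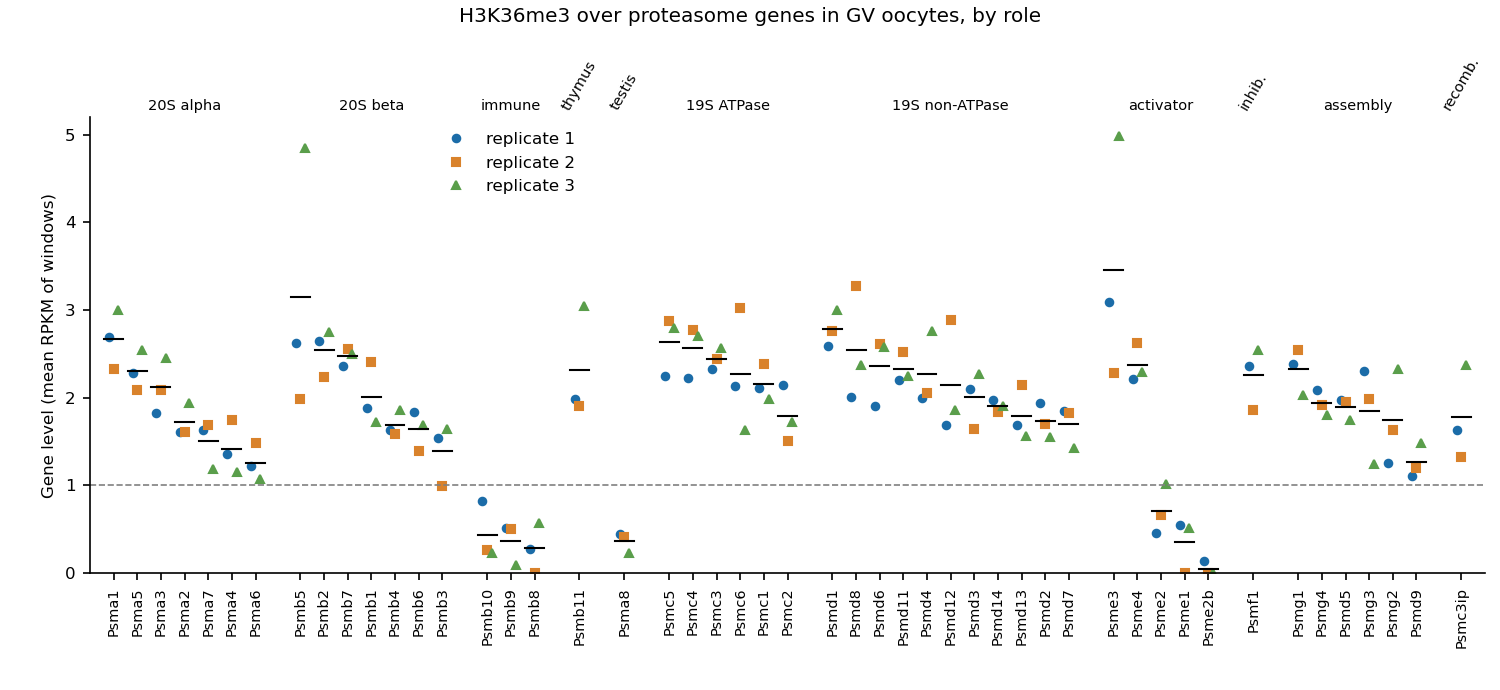
H3K36me3 level (mean RPKM of the windows of a gene, y axis) of each of the 49 proteasome genes (x axis, grouped by role), with 1 marker per replicate and a black bar at the mean of 3 replicates. The dashed line marks a level of 1. Immune subunits, Psma8, Psme1, Psme2 and Psme2b have their means below it, while the means of all constitutive core and regulatory subunits lie above it.

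Psme3, which encodes the nuclear activator PA28 gamma, had the highest mean level. It measured 3.09 in replicate 1, 2.28 in replicate 2 and 4.99 in replicate 3 (3.45 ± 1.39). Psmb5, the chymotrypsin-like catalytic subunit, was next with 2.63, 1.98 and 4.85 (3.15 ± 1.51). In both genes replicate 3 stood well above the others, and their order cannot be told from their spread. Psmd1, a scaffold of the regulatory particle, measured 2.59, 2.76 and 3.00 in replicates 1, 2 and 3. Psma1 measured 2.70, 2.32 and 3.00, and Psmc5 2.24, 2.87 and 2.79. These 3 genes overlapped in their replicates. Psmb5 and Psmc5 lie in runs of enriched windows of 72 kb and 54 kb, which hold 5 and 4 protein-coding genes. Reads of their neighbours cannot be separated in such runs. Among the constitutive subunits, Psmb3 had replicates on both sides of 1, with 1.54, 0.99 and 1.64 (1.39 ± 0.35).

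The immune subunits stood at the other end. Psmb8, on chr17:34197721-34201454, measured 0.27 in replicate 1, 0 in replicate 2 and 0.56 in replicate 3 (0.28 ± 0.28). With the RefSeq bounds, which begin 1 window later, its mean was 0.09. Psmb9, on chr17:34181987-34187764, measured 0.51, 0.50 and 0.08 (0.36 ± 0.24). Psmb10, on chr8:105935735-105938444, measured 0.81, 0.26 and 0.23 (0.43 ± 0.33). Each of the 3 genes was below 1 in each replicate, and 0 of their 10 windows was enriched. The counts behind these levels were small. Psmb8 held 11 reads over the replicates (95% exact Poisson interval 5.49 to 19.7), where a level of 1 would take 38.5 reads. Psmb9 held 21 reads (upper bound 32.1) against 51.4, and Psmb10 held 22 reads (upper bound 33.3) against 38.5. The upper bounds lie below the count at a level of 1, and the intervals cover counting error only, since PCR copies are not independent molecules.

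The constitutive counterparts were above them in each replicate. Psmb6, the caspase-like subunit, on chr11:70525367-70527858, measured 1.83, 1.39 and 1.69 (1.64 ± 0.23). Psmb7, the trypsin-like subunit, on chr2:38588036-38644087, measured 2.36, 2.56 and 2.50 (2.47 ± 0.10). Psmb5, on chr14:54614119-54618022, exceeded Psmb8 by 2.87 ± 1.24 RPKM (SD of the difference, n = 3). The difference between Psmb6 and Psmb9 was 1.27 ± 0.36, and that between Psmb7 and Psmb10 was 2.03 ± 0.43. Each of the 3 differences was positive in 3 of 3 replicates (two-sided exact sign-flip permutation test, p = 0.25 for each, unadjusted, 4 pairs compared), and in no pair did the replicates of the partners overlap.

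**Figure D3:**
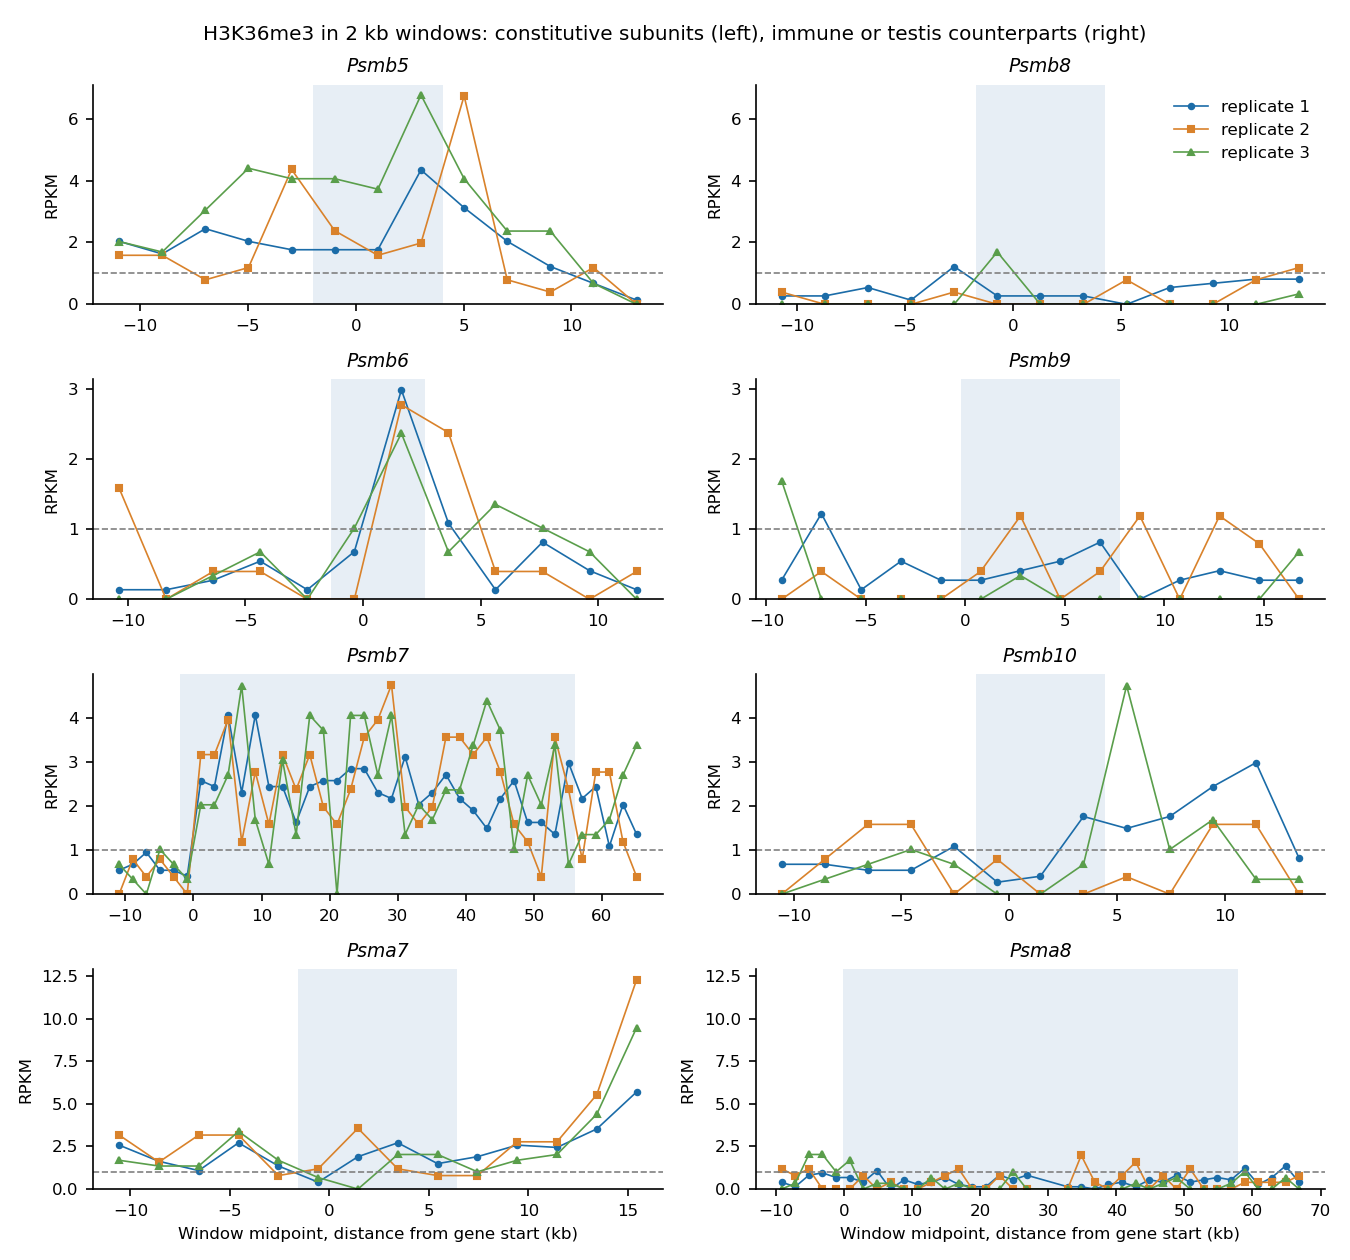
H3K36me3 in single 2 kb windows (RPKM, y axis, scaled for each row) against the distance of the window midpoint from the gene start (kb, x axis, transcription to the right) for 4 constitutive subunits (left) and their immune or testis counterparts (right), with 1 line per replicate. Shading marks the windows of the gene and the dashed line a level of 1. The shaded windows of Psmb8, Psmb9, Psmb10 and Psma8 have means below 1, while those of Psmb5 are all above it.

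The bases before the start sites of these genes are shown because the calls at their start windows differ. The promoters are from RefSeq on GRCm38.p6, and 41 of the 49 members had an entry. No entry was found for Psmb7. Each line gives the 250 bases before the start, 5′ to 3′ on the gene's strand: Psmb5 chr14:54617996-54618245 (minus strand), Psmb6 chr11:70525107-70525356 (plus), Psmb8 chr17:34197945-34198194 (plus), Psmb9 chr17:34187331-34187580 (minus) and Psmb10 chr8:105938393-105938642 (minus). Capitals mark matches to TGACNNNGC or CCAAT on either strand.
Psmb5: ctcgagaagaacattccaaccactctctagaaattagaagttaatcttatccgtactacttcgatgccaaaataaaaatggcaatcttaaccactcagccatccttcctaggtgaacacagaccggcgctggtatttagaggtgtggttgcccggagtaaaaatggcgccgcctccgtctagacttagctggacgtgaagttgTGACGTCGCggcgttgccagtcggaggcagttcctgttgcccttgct
Psmb6: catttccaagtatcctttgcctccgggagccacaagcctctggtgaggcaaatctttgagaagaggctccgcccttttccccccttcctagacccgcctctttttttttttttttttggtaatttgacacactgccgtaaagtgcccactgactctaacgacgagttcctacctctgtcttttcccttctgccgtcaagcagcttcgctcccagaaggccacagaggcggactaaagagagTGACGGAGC
Psmb8: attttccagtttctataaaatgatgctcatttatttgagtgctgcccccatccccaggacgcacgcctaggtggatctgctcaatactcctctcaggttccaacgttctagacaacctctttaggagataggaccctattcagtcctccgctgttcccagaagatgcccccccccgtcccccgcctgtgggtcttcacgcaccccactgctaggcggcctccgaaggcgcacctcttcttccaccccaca
Psmb9: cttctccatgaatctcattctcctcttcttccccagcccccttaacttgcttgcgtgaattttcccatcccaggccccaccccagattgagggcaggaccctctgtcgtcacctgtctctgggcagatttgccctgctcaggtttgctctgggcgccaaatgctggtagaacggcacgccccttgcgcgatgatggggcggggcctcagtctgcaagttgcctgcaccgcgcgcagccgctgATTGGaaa
Psmb10: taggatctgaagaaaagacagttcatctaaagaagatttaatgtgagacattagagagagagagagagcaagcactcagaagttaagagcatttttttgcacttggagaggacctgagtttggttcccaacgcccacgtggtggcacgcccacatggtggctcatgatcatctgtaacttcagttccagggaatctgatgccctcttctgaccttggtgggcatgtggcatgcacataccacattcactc

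TGACNNNGC is the core of the antioxidant response element, to which factors of the Nfe2l1 family bind as activators of proteasome genes. It began 47 bases before the start of Psmb5 and 9 bases before that of Psmb6. It was present in 6 of the 41 members with a promoter, which also included Psmc6, Psmd12, Psmd9 and Psme4, and in 12.5% of all 31396 autosomal promoters of the same length of 300 bases. CCAAT was present in 14 of the 41 members, Psmb9 among them, and in 37.3% of all promoters. GAAANNGAA, letters found in interferon response elements, was present in 7 members and in 8.52% of all promoters. Of the low members with an entry only Psme1 held it, and the promoters of Psmb8, Psmb9 and Psmb10 did not. TGACGTCA, the cyclic AMP response element, was in 0 members and in 1.83% of all promoters. Letters of TGACNNNGC and TGACGTCA can overlap. The promoters of the 35 members above 1 with an entry held a median of 20 CpG dinucleotides (3 to 41), those of the 6 at or below 1 a median of 11 (2 to 19) and all promoters a median of 7.

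Psmb11, on chr14:54621433-54629556, did not share the low level of the immune subunits. It measured 1.98, 1.90 and 3.05 (2.31 ± 0.64), and 5 of its 5 windows were enriched. Its windows lie in the same run of enriched windows as Psmb5. That run spans chr14:54608001-54680000, or 72 kb, and also holds Cdh24, Gm17606 and Acin1, with a mean of 2.42 ± 0.23. Reads of neighbouring genes cannot be separated in such a run, so the value of Psmb11 does not tell whether Psmb11 itself was transcribed. The same limit holds for Psmb5, whose flanks averaged 2.14 RPKM, and for its difference from Psmb8. Psma8, the testis subunit, on chr18:14706151-14762301, measured 0.44, 0.41 and 0.23 (0.36 ± 0.12). Over its 27 windows it held 133 reads (95% exact Poisson interval 111 to 158), where a level of 1 would take 347 reads. Psma7 measured 1.63, 1.68 and 1.18 (1.50 ± 0.27) and exceeded Psma8 by 1.14 ± 0.16 RPKM, again in 3 of 3 replicates (exact permutation test, p = 0.25). Psma7 too lies in a shared run, of 20 kb, which also holds Lsm14b. Of the 10 windows of that run, 3 lie in Psma7 and 7 beyond its end. Reads of neighbours thus cannot be separated in Psma7 either, nor in its difference from Psma8.

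As a group, the 14 constitutive core subunits averaged 1.99 ± 0.16 RPKM, and the 5 immune, thymus and testis subunits 0.75 ± 0.12. Their log2 ratios were 1.27, 1.60 and 1.39 in replicates 1 to 3, a mean of 1.42 ± 0.17 or 2.68-fold (exact sign-flip permutation test, p = 0.25). Without Psmb11, an alternative chosen after seeing the data, the log2 ratio was 1.93, 2.67 and 2.98, a mean of 2.53 ± 0.54 or 5.77-fold (exact permutation test, p = 0.25). The ratio was positive in 3 of 3 replicates either way.

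The activators were split. Psme1 and Psme2 encode the interferon-inducible activator PA28 alpha-beta, and both were low. Psme1, on chr14:55578123-55581529, measured 0.54, 0 and 0.51 (0.35 ± 0.30), with 11 reads (95% exact Poisson interval 5.49 to 19.7) where a level of 1 would take 25.7. Psme2, on chr14:55587441-55591113, measured 0.45, 0.66 and 1.02 (0.71 ± 0.28), so that replicate 3 was just above 1 and the others below. Psme2b, a copy of Psme2 with a single valid window, held 1 read in all, in replicate 1 (0.14 RPKM, and 0 in the others). Psme3 was high, as given above, and Psme4, the nuclear activator PA200, measured 2.22, 2.62 and 2.29 (2.38 ± 0.21) over 56 windows. Of the 5 activator genes, 2 were thus above 1. Psmf1, an inhibitor of the core particle, had a level of 2.25 ± 0.35.

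The 6 assembly genes were all above 1 and averaged 1.83 ± 0.05 RPKM. Psmg1 to Psmg4, chaperones of the alpha ring, ranged from 1.74 (Psmg2) to 2.32 (Psmg1). Psmd5 and Psmd9, chaperones of the ATPase ring, had levels of 1.89 and 1.26. The value of Psmd9 rests on its annotation: GENCODE gives it 36 windows and RefSeq 12, and with the RefSeq bounds its level was 2.47. Bounds also matter for the alpha subunit Psma2, with 32 windows by GENCODE and 7 by RefSeq. Its level was 1.72, and 2.26 with the RefSeq bounds. Psma3 went the other way, from 2.12 to 1.81, and Psma6 stayed at 1.25. Psmc3ip meets the rule by its symbol, but it is a meiotic recombination factor and no proteasome gene. Its level was 1.77 ± 0.54, in windows shared with a neighbouring gene, and 0.94 with the RefSeq bounds.

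Along the gene, the mark was lower at the start than over the rest. Among the 34 members with at least 5 windows, the window at the gene start averaged 0.964 ± 0.144 RPKM and the window at the gene end 1.93 ± 0.04. End over start gave a log2 ratio of 1.01 ± 0.18 (SD, n = 3), positive in 3 of 3 replicates (exact sign-flip permutation test, p = 0.25). The end window was above the start window in 30 of the 34 members (88.2%), against 72.9% of all genes of at least 5 windows. In the other genes the log2 ratio was 0.91 ± 0.12, and the difference between members and other genes, 0.11 ± 0.16, was within its spread (exact permutation test, p = 0.5). In the 33 of these members above 1, the opening part, with each gene cut into 5 equal parts, averaged 1.46 ± 0.04 RPKM and the next part already 2.32 ± 0.15. In all genes above 1, these parts averaged 1.45 ± 0.04 and 1.91 ± 0.08, and the last part 2.10 ± 0.11.

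**Figure D4:**
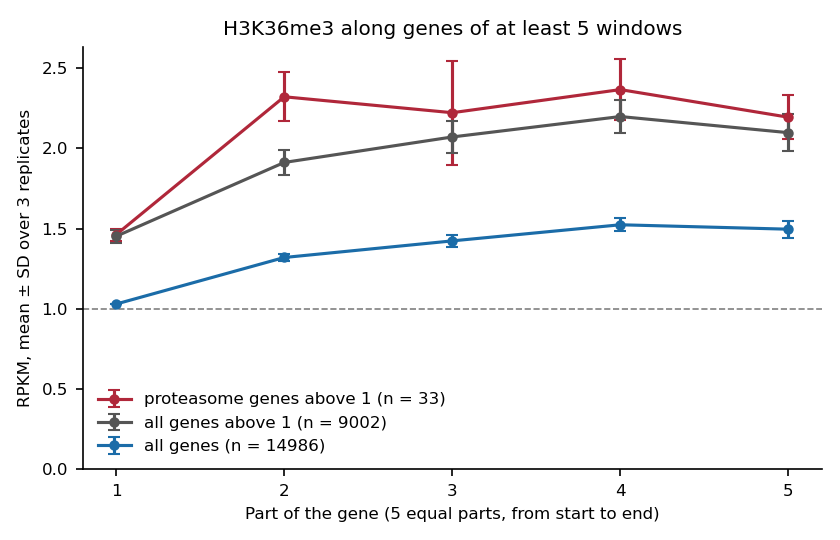
H3K36me3 (RPKM, y axis, mean over genes) in each of 5 equal parts of the gene from start to end (x axis) for 33 proteasome genes above 1, all genes above 1 and all genes, each with at least 5 windows; error bars are the SD over 3 replicates. The proteasome genes go from 1.46 in the first part to 2.32 in the next and stay between 2.19 and 2.37 after it.

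Flanking windows within 10 kb that overlap no protein-coding gene were found for 39 members. The bodies of these members averaged 2.01 ± 0.08 RPKM and their flanks 0.877 ± 0.075. The log2 ratio was 1.20 ± 0.19 (exact sign-flip permutation test, p = 0.25), and the body was above the flank in 34 of the 39, against 73.9% of all genes with such windows. For each of the 42 members above 1, the run of enriched windows was measured that held the most windows of the gene. Such a run could cover a minor part of the gene, as in Psma6 with 6 of 18 windows. These runs were between 4 and 90 kb long, with a median of 22 kb, against 28 kb for all genes above 1. The run reached beyond the window of the gene end in 29 of the 42 members (69.0%) and upstream of the start window in 5 (11.9%). Among all genes above 1, these shares were 47.7% and 17.9%. The runs of 21 members held another protein-coding gene, a share that was not computed for all genes above 1. The longest was the 90 kb run of Psmd1, which also held Htr2b and Gm21972.

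The deposited window calls place the members beside 2 other marks, H3K4me3, found at promoters and in broad oocyte domains, and H3K27me3, a mark of silent chromatin. These calls carry no replicates. The start window was called for H3K4me3 in 46 of the 49 members (93.9%), against 78.3% of all autosomal protein-coding genes. The exceptions were Psma6, Psmd9 and Psme2b. The GENCODE start was used here. For Psmd9 it is at base 123169413, against 123228190 in RefSeq. Psma6 has another RefSeq promoter at chr12:55398575-55398874, whose call was not counted. At least 1 window was called for H3K27me3 in 8 members (16.3%), against 43.8% of all genes. These were Psmb8, Psmb9, Psmb10, Psma8 and Psme1 among the 7 members at or below 1, and Psma6, Psmd5 and Psmd9 among the 42 above it. For Psmd5 and Psmd9 the windows counted are those of the GENCODE bounds, which are wider than those of RefSeq. Of the 10 windows of the immune subunits, 9 carried H3K27me3, as did 16 of the 27 windows of Psma8. The start windows of Psmb8, Psmb9, Psmb10, Psma8 and Psme1 were called for both H3K4me3 and H3K27me3, as was that of Psmd5, a member above 1. The share of start windows with both calls over all genes was not computed. The start window of Psmb6 was called for H3K4me3 alone, and that of Psmb5 for H3K4me3 and H3K36me3. The call for Psmd5 rests on the GENCODE start at base 34874968. Its RefSeq start, at 34870965, lies in its run of enriched windows, chr2:34848001-34872000. In the members above 1, which were set apart by this very mark, 384 of 529 windows (72.6%) carried H3K36me3 alone, 70 (13.2%) carried it with H3K4me3 and 1 with H3K27me3. Over the windows of all autosomal protein-coding genes, these shares were 41.8%, 6.65% and 2.49%. In the members at or below 1, 17 of 43 windows (39.5%) carried H3K4me3 with H3K27me3 and 10 (23.3%) H3K27me3 alone. Over all genes, these were 8.92% and 69256 of 495624 windows. The members at or below 1 were set apart by H3K36me3 too, and none of their 43 windows was called for it. Of the windows over all genes, 51.6% were enriched for H3K36me3 and could not fall in these classes. Shares among windows without H3K36me3 were not computed, so the comparison cannot show an excess of H3K27me3.

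Psmb8 and Psmb9 lie beside each other in the major histocompatibility complex, next to the peptide transporter genes Tap1 and Tap2. Both fell in a single stretch of 50 windows, chr17:34120001-34220000, in which no window was enriched. It averaged 0.43 in replicate 1, 0.45 in replicate 2 and 0.15 in replicate 3 (0.35 ± 0.17), and 34 of its 50 windows were called for H3K27me3. It also held windows of Tap1, Tap2, H2-DMa, H2-DMb1, H2-DMb2 and Brd2, of which all but Brd2 act in antigen processing. The stretches without H3K36me3 enrichment around Psmb10 and Psme1 were 8 kb each, and 3 of 4 windows in each were called for H3K27me3. Both were bordered by an enriched window on either side. Upstream of Psmb10 the border measured 0.54, 1.59 and 1.02 RPKM in replicates 1, 2 and 3. No further window within 10 kb upstream was enriched. Upstream of Psme1 the border measured 1.90, 1.98 and 1.35. Beyond the end of Psme1 it measured 0.81, 1.98 and 0.68, and the stretch without enrichment around Psme2 followed. The share of H3K27me3 calls in other stretches without enrichment was not computed. Beyond the end of Psmb10 the next window measured 1.49, 0.40 and 4.74 RPKM in replicates 1, 2 and 3, against 1.77, 0 and 0.68 in the last window of the gene, so that the replicates did not share a direction.

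Other genes that serve the proteasome were counted in the same way. Of 19 such genes, 18 were above 1, and the list averaged 2.01 ± 0.13 RPKM. Nfe2l1, an activator of proteasome gene transcription, was the highest at 3.04 ± 0.38. The ubiquitin receptor Adrm1 had 2.15 ± 0.34, the assembly factor Pomp 2.14 ± 0.33 and the deubiquitinase Usp14 1.37 ± 0.08. The exception was Ubqln4, which shuttles ubiquitinated proteins to the proteasome, with 0.99 ± 0.46. Cytosolic ribosomal protein genes, another large housekeeping complex, were above 1 in 71 of 76 cases and averaged 1.78 ± 0.15. Nuclear respiratory chain genes were above 1 in 86 of 95 cases and averaged 1.72 ± 0.07. Against ribosomal protein genes, the log2 ratio of the members was 0.07 ± 0.06 and positive in 2 of 3 replicates (exact permutation test, p = 0.5), and its sign changed under other choices of windows and of averaging. Against respiratory chain genes it was 0.11 ± 0.05 (exact permutation test, p = 0.25).

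The levels of the members were correlated between replicates, though less tightly than those of all genes. Across the 49 members, Pearson's r of the levels was 0.824 for replicate 1 with replicate 2, likewise 0.824 for replicate 1 with replicate 3, and 0.656 for the remaining pair. Over all genes the same pairs gave 0.891, 0.916 and 0.861. These are correlations across genes of the same libraries, and genes are not independent replicates. The lower value was that of the 2 shallower libraries, in which 1 read is worth 0.396 and 0.338 RPKM in a window, against 0.136 in replicate 1.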

How the data were processed

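The authors trimmed the reads with TrimGalore, mapped them to GRCm38 with Bowtie2 2.2.9 and quantified them in SeqMonk over 2 kb windows, of which those with extreme input coverage were removed. Duplicate removal is not stated. The deposited RPKM values, linear and given for each replicate, were whole multiples of the value of 1 read (100% within 0.01), from which reads were recovered, and were treated as proportional to CPM. The second deposited table holds the mark calls of each window, with no unit, where H3K4me3 and H3K27me3 come from earlier libraries of the same laboratory; its H3K36me3 call equals a mean RPKM above 1.

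A gene took all valid windows it overlapped by at least 1 base (GENCODE M21). Values were computed within each replicate and then averaged. Ratios were tested over the 3 replicates by exact permutation of their signs (two-sided), without multiple-test adjustment, and the scripts were tested on simulated data. No test was run over genes. Given in full were the catalytic subunits and their counterparts, Psma7, Psma8, Psme1 to Psme4, the 5 highest and 5 lowest members, and those on both sides of 1; the rest were summarised by role. The members and lists were chosen with earlier results of these data known. 1 gene of the list of other proteasome-related genes is not reported here. Python 3.11.15, numpy 2.4.6, pandas 2.3.3 and scipy 1.17.1 were used. Alternatives changed the threshold, the windows counted, the pseudocount, the gene bounds and the replicates.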

Additional observations from a re-analysis of the deposited data

How the results depend on the processing

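Of 41 alternative values other than those without a replicate, 21 stayed within the replicate spread or within 1.5 times the count. With a threshold of 2, 24 members were above it. Enriched member windows came to 67.3% at a threshold of 1.5, to 50.9% at 2 and to 60.5% when each replicate had to pass.

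The log2 ratio of constitutive to immune, thymus and testis subunits was 1.91 with windows chosen by their midpoint, 1.80 without the start window, 1.76 with the median over windows, 1.81 with a pseudocount of 0.1 together with averaging of log2 levels, and, as alternatives chosen after seeing the data, 2.53 without Psmb11 and 1.73 with RefSeq bounds. The log2 ratio of members to all other genes was 0.67 by midpoint, 0.68 with windows of no other gene, 0.70 without the start window, 0.68 with the median and 0.81 with the pseudocount and log2 averaging, which were changed together throughout. The log2 ratio of end to start was 1.31 with the pseudocount and log2 averaging. All of these kept their sign. The ratio of members to ribosomal protein genes did not: it was -0.048 by midpoint, -0.014 without the start window and -0.038 with the pseudocount and log2 averaging, and 0.15 with windows of no other gene. The cause was not tested. Without 1 replicate, the constitutive ratio ranged from 1.33 to 1.49. The mean of 3 replicates cannot move by more than its SD in this way, so such values say nothing of stability.

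Depth limits the short genes, since 1 read in replicate 2 is worth 0.396 RPKM in a window. Levels of genes with 1 to 3 windows, Psmb6, Psmb8, Psmb10 and Psme1 among them, rest on few reads.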
